A study of Mus musculus with 14 samples.

Results

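The 36 collagen chain genes measured in mouse left ventricle were followed here across 2 substrains and 2 treatments. They were taken by name, as every row of the deposited signal table called COL, a number, A and a number with nothing after it. That gave 36 of the 18138 gene rows. Of these, 11 encode fibrillar chains, 6 encode basement membrane chains and 19 encode chains of other classes. A further row that begins in the same way, that of Cert1, a ceramide transfer protein once named after Col4a3, fell outside the rule.

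The samples were left ventricles of male mice of the substrains C57Bl/6J and C57Bl/6N, hybridised to 14 Illumina arrays. Each substrain had 3 arrays of sham-operated controls, which received no angiotensin II according to the labels, and 4 arrays of mice infused with angiotensin II for 48 h from an osmotic mini-pump placed under the skin. The dose was 500 ng per kg, with the time unit written as a minute in one label and as an hour in another. No transgene was named for any group, and age and pooling of animals were not stated. The labels give each sample its own code without saying whether different animals lie behind them, and all p-values below then rest only on the scatter among these samples, which may be technical.

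Collagens are secreted as triple helices of 3 chains, built in the endoplasmic reticulum with the help of hydroxylases and chaperones. Types I, III and V assemble outside the cell into the fibrils that carry tension in the heart wall, and type V chains start and size those fibrils. Type IV forms the sheet-like network of basement membranes around cardiomyocytes and capillaries. Other classes coat fibrils (types XII, XIV and XVI), form beaded filaments beside cells (type VI) or carry sugar chains next to basement membranes (types XV and XVIII). In the heart most fibrillar collagen is made by fibroblasts, and angiotensin II is a known stimulus of its deposition.

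The sequences upstream of 4 chains that the results turn on differ in composition, and are shown because Col3a1 and Col5a1 had the most similar pattern over the arrays of any pair among the 20 chains above background, Col1a2 is the partner chain of Col1a1, and Col16a1 rose in both substrains. Each is the 250 bases before the annotated start, 5′ to 3′ on the gene's strand, from RefSeq for the build GRCm38.p6: chr1:45311288-45311537 for Col3a1, chr2:27886175-27886424 for Col5a1, chr6:4505368-4505617 for Col1a2 and chr4:130047590-130047839 for Col16a1, all on the plus strand. Capitals mark the TATA motif (TATAAA), the CCAAT motif and the GC-rich Sp1 motif (GGGCGG), found on either strand and counted with overlaps allowed.
Col3a1: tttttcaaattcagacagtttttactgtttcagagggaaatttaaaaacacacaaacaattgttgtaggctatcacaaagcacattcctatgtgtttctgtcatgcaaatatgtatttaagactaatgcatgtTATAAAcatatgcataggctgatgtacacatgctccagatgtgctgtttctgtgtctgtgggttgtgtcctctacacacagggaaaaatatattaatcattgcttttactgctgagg
Col5a1: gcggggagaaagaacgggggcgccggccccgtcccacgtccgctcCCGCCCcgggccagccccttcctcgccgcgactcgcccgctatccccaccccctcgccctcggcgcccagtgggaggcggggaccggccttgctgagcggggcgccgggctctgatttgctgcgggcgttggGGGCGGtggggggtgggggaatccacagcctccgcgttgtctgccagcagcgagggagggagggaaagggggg
Col1a2: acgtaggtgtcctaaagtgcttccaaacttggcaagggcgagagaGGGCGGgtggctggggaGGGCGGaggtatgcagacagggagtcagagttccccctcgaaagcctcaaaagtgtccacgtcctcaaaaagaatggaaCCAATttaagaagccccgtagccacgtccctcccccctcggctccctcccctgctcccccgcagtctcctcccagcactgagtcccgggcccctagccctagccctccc
Col16a1: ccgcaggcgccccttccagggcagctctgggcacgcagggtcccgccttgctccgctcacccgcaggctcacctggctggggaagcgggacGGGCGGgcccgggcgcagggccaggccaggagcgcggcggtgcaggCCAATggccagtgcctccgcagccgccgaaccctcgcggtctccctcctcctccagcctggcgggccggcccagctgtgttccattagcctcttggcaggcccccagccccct
The Col3a1 stretch was 35.2% G or C with 1 TATAAA, while that of Col5a1 was 76.4% G or C with 2 GGGCGG and no other of these motifs. The Col1a2 stretch (62.0% G or C) held 1 CCAAT and 2 GGGCGG, and that of Col16a1 (75.6%) held 1 CCAAT and 1 GGGCGG. The median over all 32851 windows in the RefSeq promoter table was 52.4%. Windows were found for 29 of the 36 chains, 32 in all. Among them 5 held TATAAA (15.6%, against 12.4% of all windows), 12 held CCAAT (37.5% against 33.8%), 18 held GGGCGG (56.2% against 32.7%), 3 held GGAATG (9.4% against 12.6%) and 7 held CAGACA (21.9% against 17.1%), each counted on both strands. These are matches of letters, not known binding sites. Several chains lie next to one another in the genome: Col4a1 with Col4a2 on chromosome 8, whose windows from 250 bases before to 50 bases after the start share 78 bases on opposite strands, Col4a3 with Col4a4 and Col3a1 with Col5a2 on chromosome 1, Col6a1 with Col6a2 on chromosome 10, and Col4a5 with Col4a6 on chromosome X.

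The share of rows detected per array ran from 46.4% to 49.3%, and no 2 arrays of a group correlated below 0.976. The array C57Bl/6J angiotensin II 1 stood apart, with 196 rows more than 1 log2 unit beyond all other arrays of its group. C57Bl/6N sham 1 had 56 such rows and C57Bl/6N angiotensin II 4 had 27, while the other arrays had between 0 and 15. On C57Bl/6J angiotensin II 1, 5 collagen rows lay at least 0.5 below the other arrays of the group, so results that rest on it are given with and without it. Arrays are numbered within their group only to name them.

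Levels are log2 signal intensities after background correction and quantile normalisation. An array counted as above background for a row if the signal was no lower than a floor of 5.42 to 5.61 in log2 level. The floor was the signal of the dimmest detected row on that array, leaving aside rows that appear to combine several probes. By that measure 13 of the 36 chains were above background on all 14 arrays: Col1a1, Col1a2, Col3a1, Col4a1, Col4a2, Col4a5, Col5a1, Col6a1, Col6a2, Col14a1, Col15a1, Col16a1 and Col18a1. A further 7 reached it on at least 3 arrays: Col4a3, Col4a4, Col5a3, Col9a2, Col11a2, Col12a1 and Col27a1. Col18a1, a row that appears to combine several probes, was above the floor on all 14 arrays but had a detection p under 0.05 on only 8. Col2a1, Col4a6, Col9a1 and Col25a1 passed the filter on detection p-values without any array above background. They stay in the counts and medians over tested rows, but no change of theirs is described on its own. The remaining 12 passed neither measure: Col5a2, Col7a1, Col8a2, Col9a3, Col10a1, Col11a1, Col13a1, Col17a1, Col19a1, Col23a1, Col24a1 and Col28a1. A dim row limits what can be measured, so these rows do not show that a transcript was absent. The filter asked for detection (p under 0.05) on 3 or more arrays and left 24 collagen rows tested, 8 fibrillar, 6 of basement membrane and 10 of other classes, among 9408 rows in all. A row could pass it through the group where it was high, so counts below concern the tested rows and not every chain.

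**Figure D1:**
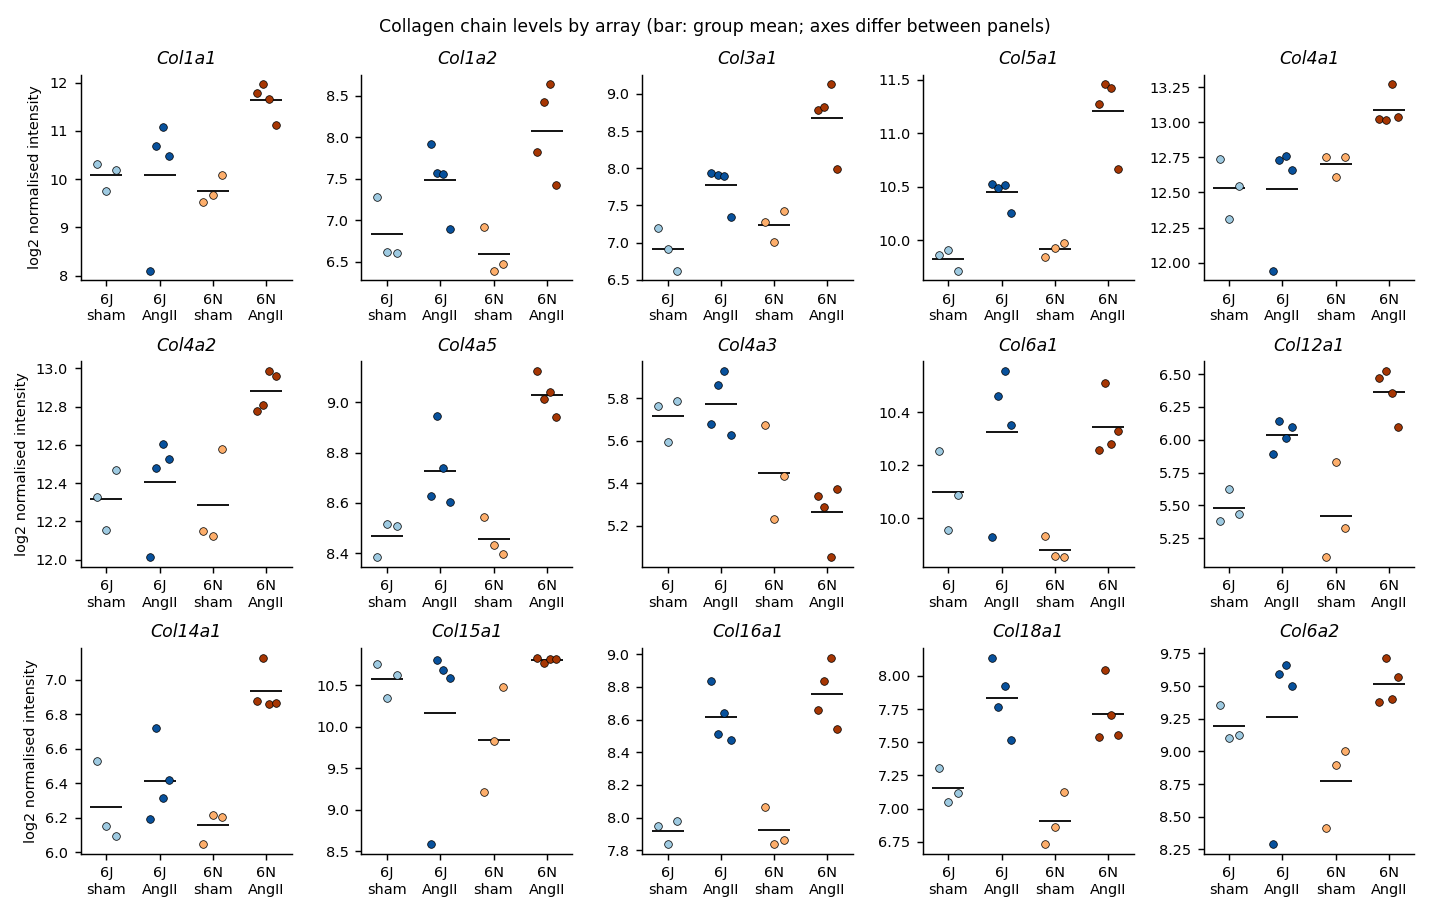
Log2 level (signal intensity after background correction and quantile normalisation) of 15 collagen chains on each of the 14 arrays, one panel per chain, with the 4 groups side by side; points are arrays and bars are group means. C57Bl/6N angiotensin II arrays lie above every C57Bl/6N sham array for Col1a1, Col3a1, Col5a1 and Col16a1, and the lone low Col1a1 and Col15a1 points among treated C57Bl/6J arrays are 8.10 and 8.58.

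In C57Bl/6N ventricles angiotensin II raised collagen chains of every class. With the background correction used here the main fibrillar chains rose most: Col1a1 was 3.66-fold higher than in sham, Col1a2 2.80-fold, Col3a1 2.72-fold and Col5a1 2.45-fold. That order did not hold for Col1a2 with the background inferred from all rows (neqc). Its log2 change was then 0.50, below the 0.54 of Col16a1, a chain of another class. The basement membrane chains Col4a2 and Col4a5 rose 1.51-fold and 1.49-fold, and 5 chains of other classes rose between 1.38-fold (Col6a1) and 1.92-fold (Col12a1). In all, limma called 11 of 24 tested collagen rows higher (45.8%) and 0 lower at a Benjamini-Hochberg adjusted p under 0.05, while 9.45% of all rows were called higher and 7.92% lower, 17.4% in either direction. At an unadjusted p under 0.05 the collagen count was 15, against 2952 of the 9408 rows. By class the calls were 4 of 8 fibrillar, 2 of 6 basement membrane and 5 of 10 other rows. The median change over the collagen rows was 0.52 on the log2 scale, against -0.04 over all rows, and 20 of 24 were positive against 43.5% of all rows. These are whole-ventricle samples, so more cells of a type and more RNA per cell cannot be told apart.

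Type I collagen, the chief fibril of the heart wall, is built of Col1a1 and Col1a2 chains. In C57Bl/6N the log2 level of Col1a1 was 9.52, 9.67 and 10.08 on the sham arrays and 11.78, 11.97, 11.65 and 11.11 on the angiotensin II arrays. The groups did not overlap, and the change was 1.87 ± 0.50 SE (adjusted p = 0.0185). That call was lost when the arrays of C57Bl/6N sham 1 (adjusted p = 0.079) or C57Bl/6N sham 2 (0.0605) were left out. It was lost narrowly without C57Bl/6N angiotensin II 1, and was firmer without C57Bl/6J angiotensin II 1 (SE 0.21, adjusted p = 8.64e-05). It was also lost with no filter on dim rows (adjusted p = 0.0536). Col1a2 read 6.92, 6.39 and 6.47 in sham and 7.82, 8.43, 8.64 and 7.43 under angiotensin II. All treated arrays were above all sham arrays, by 1.48 ± 0.29 on average (adjusted p = 0.00349).

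Col3a1, the chain of the thinner type III fibrils, read 7.27, 7.01 and 7.43 in C57Bl/6N sham and 8.78, 8.83, 9.13 and 7.99 under angiotensin II, a change of 1.45 ± 0.23 (adjusted p = 0.00112). C57Bl/6N angiotensin II 4 was the lowest of the treated arrays and still above every sham array. Col5a1, the chain of type V collagen that starts fibril assembly, read 9.84, 9.93 and 9.98 in sham and 11.28, 11.46, 11.42 and 10.66 under angiotensin II. Its sham arrays lay close together, no treated array overlapped them, and its change was 1.29 ± 0.16 (adjusted p = 0.000167). Col5a3, another type V chain, went from 5.85, 6.05 and 5.93 to 6.13, 6.56, 6.34 and 6.11 without overlap but missed the threshold (0.34 ± 0.18, adjusted p = 0.2). Col27a1 passed the background floor on 3 of 4 treated arrays and on 0 of 3 sham arrays, at least 1.02-fold higher (adjusted p = 0.106), and Col11a2 had a log2 change of 0.07.

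Among basement membrane chains, Col4a1 and Col4a2 form the common type IV helix. Col4a2 read 12.15, 12.12 and 12.58 in C57Bl/6N sham and 12.78, 12.81, 12.99 and 12.96 under angiotensin II, a rise of 0.60 ± 0.15 (adjusted p = 0.0127). It lost its call without C57Bl/6N sham 1 (adjusted p = 0.0632) or sham 2 (0.0626). Col4a1 read 12.75, 12.61 and 12.75 in sham and 13.02, 13.02, 13.27 and 13.04 under angiotensin II, which did not overlap but missed the threshold (0.38 ± 0.17, adjusted p = 0.141), though not when C57Bl/6J angiotensin II 1 was left out (adjusted p = 0.018). Col4a5, which joins the alternative type IV networks, read 8.54, 8.43 and 8.40 in sham and 9.12, 9.01, 9.04 and 8.94 under angiotensin II, a rise of 0.57 ± 0.10 (adjusted p = 0.00174). Its relatives Col4a3 and Col4a4 had changes of -0.18 each, with adjusted p = 0.326 and 0.449. No treated C57Bl/6N array was above background for Col4a3.

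Of the fibril-associated chains, which bind the surface of fibrils and link them to other matrix, 3 rose in C57Bl/6N. Col12a1 read 5.10, 5.83 and 5.33 in sham, where 1 of 3 arrays was above background, and 6.47, 6.53, 6.36 and 6.09 under angiotensin II, a rise of 0.94 ± 0.15 (adjusted p = 0.00126). Col14a1 read 6.04, 6.22 and 6.20 in sham and 6.88, 7.13, 6.86 and 6.87 under angiotensin II, a rise of 0.78 ± 0.14 (adjusted p = 0.00191). Col16a1 read 8.06, 7.84 and 7.87 in sham and 8.66, 8.84, 8.98 and 8.54 under angiotensin II, a rise of 0.83 ± 0.12 (adjusted p = 0.000541). In each of these 3 genes the lowest treated array exceeded the highest sham array. Col9a2, a cartilage chain of the same family, was above background on 3 of the 7 C57Bl/6N arrays and had a change of 0.01 ± 0.21.

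Type VI collagen forms beaded filaments around cells. Col6a1 read 9.93, 9.86 and 9.85 in C57Bl/6N sham and 10.26, 10.51, 10.28 and 10.33 under angiotensin II, a rise of 0.46 ± 0.13 (adjusted p = 0.0266). That call did not hold without C57Bl/6N sham 1, sham 2, sham 3, angiotensin II 2 or angiotensin II 3, with adjusted p of 0.0597, 0.0782, 0.0622, 0.0732 and 0.0508 for Col6a1. Col6a2 read 8.41, 8.89 and 9.01 in sham and 9.38, 9.72, 9.40 and 9.57 under angiotensin II, a change of 0.75 ± 0.26 that missed the threshold (adjusted p = 0.0613) but passed it without C57Bl/6J angiotensin II 1 (0.00192). Its sham arrays were spread, with C57Bl/6N sham 1 lowest.

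Types XV and XVIII carry sugar chains beside basement membranes, and the end of type XVIII is the source of endostatin. Col18a1 read 6.73, 6.86 and 7.13 in C57Bl/6N sham and 7.54, 8.04, 7.71 and 7.56 under angiotensin II, a rise of 0.81 ± 0.16 (adjusted p = 0.00354). Col15a1 read 9.21, 9.82 and 10.48 in sham and 10.83, 10.76, 10.81 and 10.82 under angiotensin II. The treated arrays were nearly equal while the sham arrays spanned more than 1 log2 unit, and the change of 0.97 ± 0.41 missed the threshold (adjusted p = 0.125). Without C57Bl/6J angiotensin II 1 it passed (adjusted p = 0.00483), and without C57Bl/6N sham 1 the change of Col15a1 was 0.66 ± 0.46 (adjusted p = 0.416). The size of these changes in dim rows depends on the background taken off. With the background inferred from all rows (neqc) the 11 calls held, but the changes were 0.50 for Col1a2, 0.76 for Col3a1, 0.54 for Col16a1, 0.24 for Col18a1, 0.13 for Col14a1 and 0.10 for Col12a1. Altogether 15 of 24 collagen rows (62.5%) had every treated C57Bl/6N array above every sham array and 0 had every one below, against 12.6% and 15.5% of all rows.

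In C57Bl/6J ventricles 2 collagen chains rose, both outside the fibrillar and basement membrane classes. Col16a1 was 1.62-fold and Col18a1 1.60-fold higher under angiotensin II than in sham. These are 2 of 24 tested rows (8.33%) called higher by limma and 0 called lower, while 0.999% of all rows were called higher and 0.372% lower, 1.37% in either direction. At an unadjusted p under 0.05 there were 8 collagen rows, against 1437 of the 9408 rows. The median collagen change was 0.06 on the log2 scale against -0.01 over all rows, and 14 of 24 were positive against 47.9% of all rows. Without C57Bl/6J angiotensin II 1 the collagen median was 0.22, against -0.02 over all rows. In 6 rows every treated array was above every sham array, against 7.94% of all rows, and in 1 (Col25a1, never above background) every one was below, against 9.19%.

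Col16a1 read 7.95, 7.84 and 7.98 on the C57Bl/6J sham arrays and 8.84, 8.51, 8.64 and 8.47 on the angiotensin II arrays, a rise of 0.70 ± 0.12 (adjusted p = 0.0108). The groups were well apart, yet its call was lost without C57Bl/6J sham 1 (adjusted p = 0.0521) or sham 2 (0.0767), with median scaling (0.61, adjusted p = 0.0689) and with neqc (0.43, adjusted p = 0.0562). Col18a1 read 7.31, 7.05 and 7.12 in sham and 8.14, 7.77, 7.92 and 7.52 under angiotensin II, a rise of 0.68 ± 0.16 (adjusted p = 0.048). Its p stood close to the threshold: leaving out any of the 3 C57Bl/6J sham arrays, or C57Bl/6J angiotensin II 1, 2 or 3, C57Bl/6N sham 2, or C57Bl/6N angiotensin II 1 or 3, ended the call, with adjusted p up to 0.200 for Col18a1. So did median scaling (adjusted p = 0.0913), neqc (0.23, adjusted p = 0.126), no filter on dim rows (0.103) and a fit of only the arrays compared (0.0900). The count of collagen rows called was 0 without C57Bl/6J sham 1 or sham 2. Calls over all 9408 rows then fell from 129 to 32 and to 1, so these losses are not particular to the collagen rows. The collagen count was 1 without C57Bl/6J sham 3 or C57Bl/6J angiotensin II 1, 2 or 3 (all rows: 45, 119, 135 and 85). It was also 1 without C57Bl/6N angiotensin II 1 or 3 (all rows: 101 and 128), and 4 without C57Bl/6N angiotensin II 4 (all rows: 179).

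Several chains shifted in C57Bl/6J without passing. Col3a1 read 7.19, 6.92 and 6.62 in sham and 7.94, 7.91, 7.90 and 7.35 under angiotensin II, a difference of 0.87 ± 0.23 (adjusted p = 0.0829). Col5a1 read 9.86, 9.91 and 9.72 in sham and 10.52, 10.49, 10.52 and 10.26 under angiotensin II, a difference of 0.62 ± 0.16 (adjusted p = 0.0662). In both genes all treated arrays were above all sham arrays, and both passed without C57Bl/6N angiotensin II 4 (adjusted p = 0.0255 for Col3a1 and 0.00673 for Col5a1). Col12a1 read 5.38, 5.63 and 5.43 in sham, with 1 of 3 arrays above background, and 5.89, 6.14, 6.02 and 6.09 under angiotensin II, a difference of 0.55 ± 0.15 (adjusted p = 0.0918). It too was without overlap, and passed without C57Bl/6N sham 2 (adjusted p = 0.0444). Of 26 alternative fits, Col3a1 and Col12a1 each passed in 2 and Col5a1 in 3. A fit with array weights, giving less weight to arrays that stand apart, was among these for each chain. It raised the calls over all rows from 1.37% to 5.94%. Col5a1 also passed in a fit of only the C57Bl/6J arrays. Col4a5 read 8.38, 8.52 and 8.51 in sham and 8.63, 8.94, 8.74 and 8.60 under angiotensin II, a difference of 0.26 ± 0.10 (adjusted p = 0.223).

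In C57Bl/6J the type I chains diverged on 1 treated array. Col1a1 read 10.30, 9.74 and 10.20 on the C57Bl/6J sham arrays and 8.10, 10.68, 11.08 and 10.48 on the angiotensin II arrays, a mean difference of 0.00 ± 0.50 (adjusted p = 0.999). The other treated arrays were all above the sham arrays, and without C57Bl/6J angiotensin II 1 the difference was 0.66 ± 0.22 (adjusted p = 0.2). Col1a2 read 7.28, 6.62 and 6.61 in sham and 7.92, 7.57, 7.56 and 6.89 under angiotensin II, a difference of 0.65 ± 0.29 (adjusted p = 0.291). The array lowest for Col1a1 was thus the highest of its group for Col1a2. On C57Bl/6N sham 1, too, Col1a1 was the lowest of its group (9.52) and Col1a2 the highest (6.92). Over all 14 arrays the correlation of Col1a1 with Col1a2 was 0.505, and -0.143 in the deviations from the group means. Without C57Bl/6J angiotensin II 1 and C57Bl/6N sham 1 the correlation over arrays was 0.923.

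Other chains were low on C57Bl/6J angiotensin II 1 as well. Col15a1 read 10.75, 10.34 and 10.63 in C57Bl/6J sham and 8.58, 10.80, 10.68 and 10.59 under angiotensin II, and Col6a2 read 9.35, 9.10 and 9.12 in sham and 8.29, 9.60, 9.66 and 9.50 under angiotensin II. In both, C57Bl/6J angiotensin II 1 lay far below every sham array, while the other treated arrays were above all sham arrays for Col6a2 and overlapped them for Col15a1. The differences were -0.41 ± 0.41 for Col15a1 and 0.07 ± 0.26 for Col6a2, and 0.12 ± 0.22 and 0.39 ± 0.14 without that array, with adjusted p of 0.878 and 0.236. Col4a1 read 12.74, 12.31 and 12.55 in sham and 11.94, 12.73, 12.76 and 12.66 under angiotensin II, and Col4a2 read 12.32, 12.15 and 12.47 in sham and 12.01, 12.48, 12.61 and 12.52 under angiotensin II. Their changes were -0.01 and 0.09, and 0.19 ± 0.11 and 0.22 ± 0.12 without C57Bl/6J angiotensin II 1 (adjusted p = 0.519 and 0.469). Col5a3 read 6.07, 6.24 and 6.06 in sham and 5.29, 6.28, 5.80 and 5.82 under angiotensin II, a difference of -0.33 ± 0.18 (adjusted p = 0.398), or -0.16 ± 0.14 without that array (adjusted p = 0.687). These 3 chains also had overlapping groups.

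Col6a1 and Col14a1, which rose in C57Bl/6N, did not pass in C57Bl/6J. Col6a1 read 10.25, 9.96 and 10.09 in C57Bl/6J sham and 9.93, 10.46, 10.56 and 10.35 under angiotensin II, a difference of 0.23 ± 0.13 (adjusted p = 0.44) that was 0.36 ± 0.10 without C57Bl/6J angiotensin II 1 (adjusted p = 0.111). That array was the lowest of the C57Bl/6J arrays for Col6a1, and the other treated arrays were above all sham arrays. Col14a1 read 6.53, 6.15 and 6.10 in sham and 6.19, 6.72, 6.31 and 6.42 under angiotensin II, with overlap (0.15 ± 0.14, adjusted p = 0.631). Col4a4 read 6.30, 5.92 and 5.89 in sham and 5.57, 6.06, 5.96 and 6.09 under angiotensin II, also with overlap (-0.11 ± 0.15, adjusted p = 0.763).

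The response of each chain was then compared between the substrains by testing the difference of the responses itself. The response was larger in C57Bl/6N for 21 of 24 rows, against 47.4% of all rows. The median difference was 0.30 on the log2 scale against -0.02 over all rows. That collagen median was 0.09 with neqc, and 0.20 without C57Bl/6J angiotensin II 1 and C57Bl/6N sham 1. Limma called 0 collagen rows, against 0.0106% of all rows higher, 0% lower and 0.0106% in either direction. At an unadjusted p under 0.05 there were 7 collagen rows (Col1a1, Col4a2, Col4a5, Col5a1, Col5a3, Col14a1 and Col15a1) of 24, against 1644 of 9408 overall. The same fit with array weights, which give less weight to arrays that stand apart, called 2 of 24, Col1a1 and Col5a1, which is near the 6.05% of all rows that it called. A chain that passed in C57Bl/6N and not in C57Bl/6J is therefore not shown to respond differently.

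The median difference was 0.63 over the 8 fibrillar rows, 0.16 over the 6 basement membrane rows and 0.19 over the 10 other rows. For Col1a1 the response was 1.87 ± 0.70 larger in C57Bl/6N (95% interval 0.36 to 3.37, adjusted p = 0.215), and 1.21 ± 0.31 larger without C57Bl/6J angiotensin II 1 (adjusted p = 0.138). For Col5a1 it was 0.67 ± 0.22 larger (0.20 to 1.14, adjusted p = 0.182), and it passed without C57Bl/6N angiotensin II 4 (0.85, adjusted p = 0.00533). That omission raised the calls over all 9408 rows from 1 to 413 (4.39%). Col5a1 was then the only collagen row called, 1 of 24, which is near the share of all rows. For Col3a1 the difference was 0.58 ± 0.33 (-0.12 to 1.28, adjusted p = 0.358). Among other classes, Col14a1 differed by 0.63 ± 0.19 (0.22 to 1.03, adjusted p = 0.16) and Col15a1 by 1.38 ± 0.59 (0.13 to 2.63, adjusted p = 0.247). The latter was 0.54 ± 0.21 for Col15a1 without C57Bl/6J angiotensin II 1 and C57Bl/6N sham 1. For the chains called in both substrains the difference was 0.13 (-0.23 to 0.50) for Col16a1 and 0.13 (-0.34 to 0.60) for Col18a1, which leaves room for a difference of either sign.

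**Figure D2:**
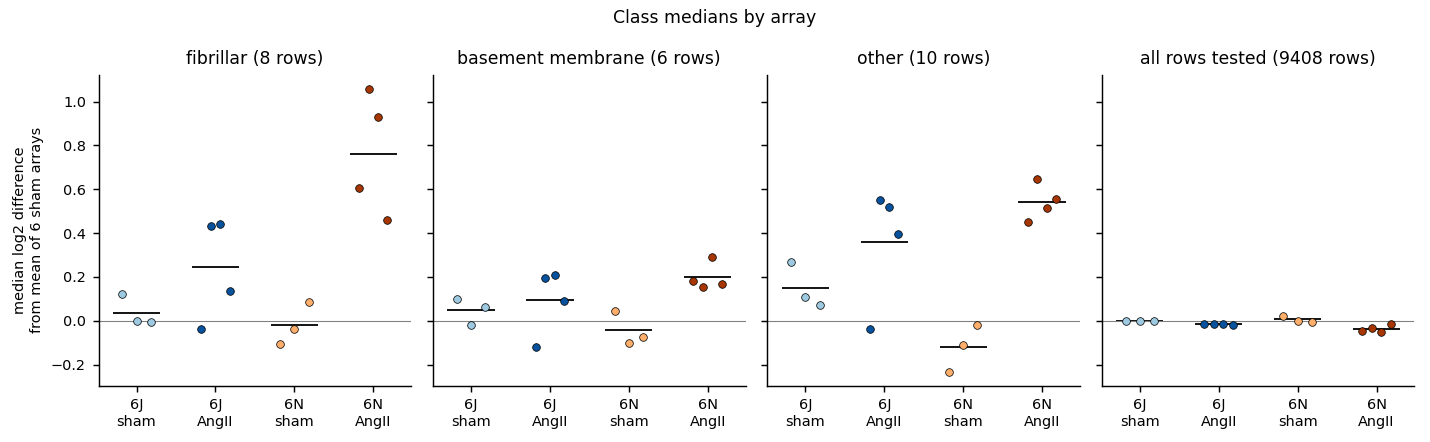
Median log2 level of the tested collagen rows of each class on each array, after subtracting each row's mean over the 6 sham arrays, with the median of all 9408 tested rows beside them; each point is an array and each bar a group mean. Fibrillar rows reach 0.46 to 1.06 on C57Bl/6N angiotensin II arrays and -0.04 to 0.44 on those of C57Bl/6J.

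Class medians on each array show how the classes moved as groups. Set against the mean of the 6 sham arrays, the 8 fibrillar rows had medians of 0.60, 1.06, 0.93 and 0.46 on the C57Bl/6N angiotensin II arrays, and of -0.04, 0.43, 0.44 and 0.14 on those of C57Bl/6J. The 2 groups did not overlap. The 6 basement membrane rows had medians of 0.18, 0.15, 0.29 and 0.17 in treated C57Bl/6N and -0.12, 0.20, 0.21 and 0.09 in treated C57Bl/6J, which did overlap. So did the 10 other rows, at 0.45, 0.65, 0.52 and 0.56 against -0.04, 0.55, 0.52 and 0.40. Over all tested rows the medians of the 14 arrays stayed between -0.05 and 0.02.

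Sham ventricles of the substrains were compared to see whether collagen levels differed without angiotensin II. Limma called 0 of 24 collagen rows, against 0.0106% of all rows higher and 0.0106% lower in C57Bl/6N, 0.0213% together. At an unadjusted p under 0.05 there was 1 collagen row, Col4a4 (-0.37 ± 0.16, adjusted p = 0.644), against 717 of 9408, and array weights called 0 collagen rows too. The median difference was -0.14, against 0.01 over all rows, with 4 of 24 positive against 51.5% of all rows. In 5 rows every C57Bl/6N sham array lay below every C57Bl/6J sham array (Col4a4, Col5a3, Col6a1, Col6a2 and Col25a1, the last never above background), against 7.61% of all rows, and in 0 every one lay above, against 8.24%. For Col6a1 the C57Bl/6J sham arrays read 10.25, 9.96 and 10.09 and those of C57Bl/6N 9.93, 9.86 and 9.85, a difference of -0.22 ± 0.14 (adjusted p = 0.759).

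Under angiotensin II, 6 collagen chains were higher and 1 was lower in C57Bl/6N than in C57Bl/6J. The higher ones were Col1a1 (2.92-fold), Col3a1 (1.87-fold), Col5a1 (1.69-fold), Col4a1 (1.48-fold), Col14a1 (1.44-fold) and Col4a2 (1.39-fold), and the lower one was Col4a3. Of all rows, 5.45% were called higher and 3.78% lower, 9.24% together, so 25% of collagen rows higher stood above the share of all rows. By class the higher calls were 3 of 8 fibrillar, 2 of 6 basement membrane and 1 of 10 other rows. The same 6 and 1 rows had groups that did not overlap, against 7.79% of all rows above and 7.26% below.

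Of these calls Col5a1 was the firmest (0.76 ± 0.14, adjusted p = 0.00827), with treated arrays at 10.26 to 10.52 in C57Bl/6J and 10.66 to 11.46 in C57Bl/6N. Col3a1 was 0.91 ± 0.21 higher (adjusted p = 0.0193), at 7.35 to 7.94 against 7.99 to 9.13. Col1a1 was 1.55 ± 0.46 higher (adjusted p = 0.0491), and 0.88 ± 0.21 without C57Bl/6J angiotensin II 1 (adjusted p = 0.0251). Without that array Col4a1 was 0.37 higher in place of 0.56 and still passed (adjusted p = 0.0456). Col4a2 did not (0.35 in place of 0.48, adjusted p = 0.0834). The count of collagen rows called fell to 1 without C57Bl/6N angiotensin II 3, where the calls over all rows fell from 9.24% to 2.33%. It fell to 2 without C57Bl/6J angiotensin II 4, C57Bl/6N angiotensin II 1 or C57Bl/6N angiotensin II 2 (4.52%, 2.15% and 5.08% of all rows). Without C57Bl/6J sham 3 it was 4 (7.42% of all rows), and Col5a1 passed in every one of these fits. With neqc Col1a1, Col4a1, Col4a2 and Col4a3 lost their calls (adjusted p = 0.0933, 0.0649, 0.0639 and 0.0636), while Col3a1 (0.58) and Col14a1 (0.09) passed with smaller differences. Fitted on only the arrays compared, Col4a3 and Col5a1 passed.

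Col4a3, a chain of the alternative type IV network found in kidney and lung basement membranes, was dim on all arrays. It read 5.68, 5.86, 5.93 and 5.63 on the C57Bl/6J angiotensin II arrays, all above background, and 5.34, 5.29, 5.05 and 5.37 on those of C57Bl/6N, none above background. It was at least 1.25-fold lower in C57Bl/6N (log2 difference -0.51 ± 0.11, adjusted p = 0.015), a call lost without C57Bl/6N angiotensin II 3 (adjusted p = 0.0597 for Col4a3). With neqc the difference was only -0.04 ± 0.01 and missed the threshold, so the fold bound holds for the background correction used here. In sham it read 5.76, 5.60 and 5.79 in C57Bl/6J and 5.67, 5.23 and 5.44 in C57Bl/6N, with 3 and 1 arrays above the floor (difference -0.27 ± 0.13, adjusted p = 0.675). Its genomic neighbour and partner chain Col4a4 differed under angiotensin II by -0.44 ± 0.14, which missed the threshold (adjusted p = 0.0643). In C57Bl/6N Col4a4 read 5.78, 5.44 and 5.77 in sham and 5.29, 5.40, 5.46 and 5.75 under angiotensin II. It was above background on 4 of 4 treated C57Bl/6J arrays and 2 of 4 treated C57Bl/6N arrays.

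**Figure D3:**
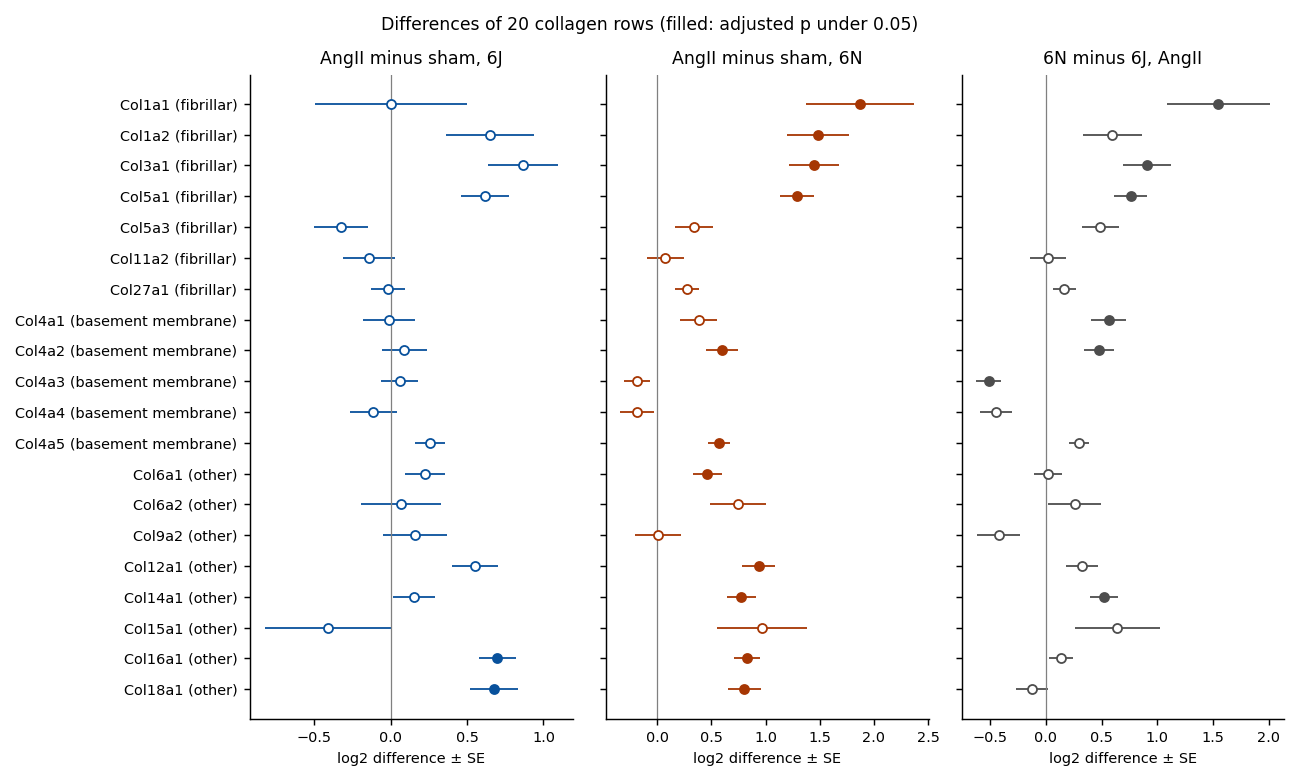
Log2 difference (point) with its standard error (line) of the 20 collagen chains above background on at least 3 arrays, with the class in brackets, for angiotensin II (AngII) minus sham in C57Bl/6J (6J), the same in C57Bl/6N (6N), and C57Bl/6N minus C57Bl/6J under angiotensin II. Filled points passed an adjusted p of 0.05 in limma: 2, 11 and 7 in the 3 panels, whose axes differ.

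Averaged over the substrains, angiotensin II raised 10 of 24 collagen rows (41.7%) and lowered 0, against 8.32% of all rows higher and 7.48% lower, 15.8% together. The firmest were Col16a1 (0.76 ± 0.08, adjusted p = 6.84e-05), Col5a1 (0.95 ± 0.11, adjusted p = 9.14e-05) and Col3a1 (1.16 ± 0.16, adjusted p = 0.000353). Col12a1, Col18a1, Col4a5, Col1a2, Col14a1, Col6a1 and Col4a2 also passed, with averages between 0.34 and 1.07. Col1a1 did not (0.94 ± 0.35, adjusted p = 0.0867). Without C57Bl/6J angiotensin II 1 the count of collagen rows called was 14, while calls over all rows rose from 15.8% to 20.1%.

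Some chains followed one another closely from array to array. Col3a1 and Col5a1, both fibrillar, had a Pearson correlation of 0.975 over the 14 arrays, 0.960 without the 2 arrays farthest from the median and 0.875 in the deviations from the group means. Col1a2 and Col3a1 had 0.915, and 0.850 in those deviations. Col6a2 and Col15a1 had 0.921, which was 0.757 without C57Bl/6J angiotensin II 1 and C57Bl/6N sham 1, where both chains were low. These points share arrays and group differences, so the values are descriptions. Among all tested rows the 5 most like Col3a1 over the 14 arrays were Olfml2b (r = 0.987), Emilin1 (0.978), Col5a1 (0.975), Tuba1a (0.971) and Lox (0.965).

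**Figure D4:**
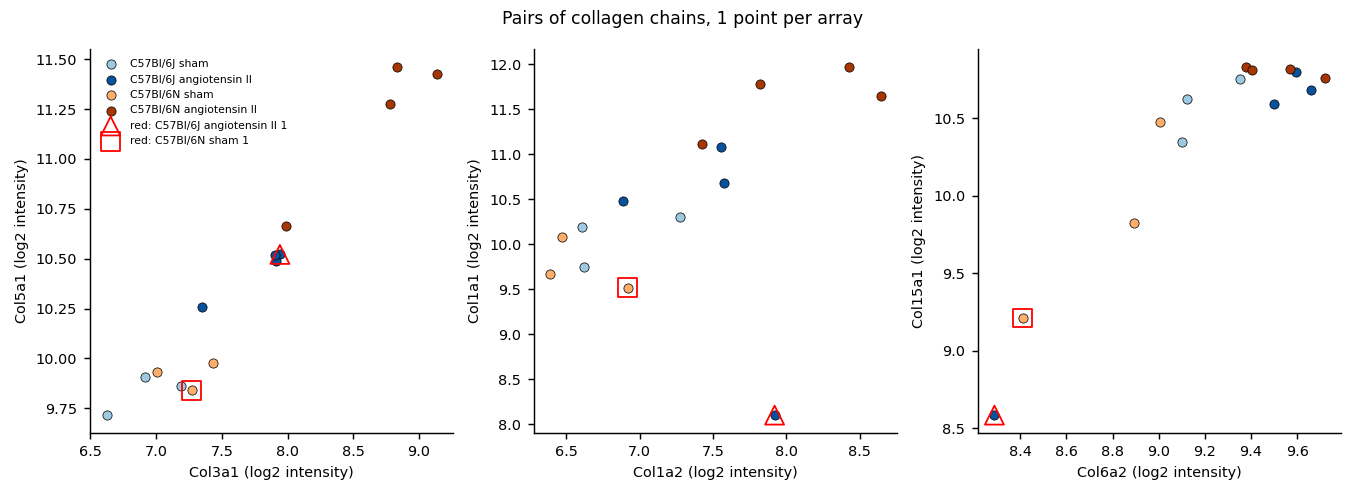
Log2 levels of 3 pairs of collagen chains on the 14 arrays, coloured by group, with C57Bl/6J angiotensin II 1 and C57Bl/6N sham 1 marked in red. Col3a1 and Col5a1 rise along one line (r = 0.975), while C57Bl/6J angiotensin II 1 lies off the line of Col1a2 and Col1a1.

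The genes that build, process and bind collagen were counted beside the chains. Of 41 listed, 37 were on the array and 29 were tested. In C57Bl/6N, angiotensin II raised 16 of 29 and lowered 0, with a median change of 0.40, where 9.45% of all rows were called higher. In C57Bl/6J it raised 2, Lox and Adamts2, where 0.999% of all rows were. The difference of responses passed for 0 of 29, and 12 were higher in C57Bl/6N than in C57Bl/6J under angiotensin II, against 5.45% of all rows. Lox, which cross-links collagen and elastin, read 7.10, 6.89 and 7.15 in C57Bl/6N sham and 9.95, 10.13, 10.37 and 8.84 under angiotensin II, a rise of 2.78 ± 0.29 (adjusted p = 7.68e-05). In C57Bl/6J it read 6.39, 6.60 and 6.50 in sham and 8.15, 7.91, 8.77 and 7.88 under angiotensin II, a rise of 1.68 ± 0.29 (adjusted p = 0.0108). In both substrains every treated Lox array was above every sham array.

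Other rises of that list in C57Bl/6N were among genes of folding, cleavage, cross-linking and binding. Fkbp10 (0.84), a prolyl isomerase that helps chains fold, and P4hb (0.74), the shared subunit of prolyl 4-hydroxylase, act inside the cell. Sparc (0.98) binds collagen outside it. Adamts2 (0.85) cleaves the amino-terminal propeptide and Pcolce (0.76) aids cleavage at the other end, while Loxl1 (0.94), a relative of Lox, cross-links. Ddr1 (0.71) is a receptor kinase for collagen. Adamts2 was the other member that rose in C57Bl/6J, by 0.52 ± 0.09 (adjusted p = 0.0137).

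Markers of the cell types in the ventricle were measured beside the collagen changes, each list as the median of its tested members' log2 levels after subtracting each member's sham mean. The 8 tested of 10 fibroblast markers had medians of 0.10 to 0.13 on treated C57Bl/6N arrays, -0.14 to -0.07 on C57Bl/6N sham arrays and 0.09 to 0.39 on treated C57Bl/6J arrays against 0.04 to 0.18 in its sham group, with Ddr2 and Postn never above background. The log2 of their summed signal was 14.65 to 14.93 in treated C57Bl/6N against 14.49 to 14.55 in its sham group, and 14.71 to 14.96 in treated C57Bl/6J against 14.60 to 14.65. In C57Bl/6N Lum, Mgp and Meox1 rose and Gsn fell, and in C57Bl/6J Meox1 rose. Of the 8 tested, 3 were thus higher and 1 lower in C57Bl/6N, against 9.45% and 7.92% of all rows. In C57Bl/6J 1 was higher, against 0.999%. Between the treated groups 1 fibroblast marker was higher and 1 lower in C57Bl/6N than in C57Bl/6J, against 5.45% and 3.78% of all rows. Of 7 tested macrophage markers 5 rose in C57Bl/6N (Cd68, Csf1r, Adgre1, Mrc1 and Lyz2), where 9.45% of all rows were called higher. All 8 on the array were above background on at least 3 arrays. Their medians were 1.01, 0.54, 0.95 and 0.23 on treated arrays against -0.35 to 0.11 in sham, and the log2 summed signal was 12.66 to 13.89 against 12.12 to 12.53. In C57Bl/6J 0 of 7 passed, with a log2 summed signal of 12.38 to 12.74 in treated and 12.43 to 12.67 in sham arrays. The difference of responses passed for 0 of 7 macrophage markers. Under angiotensin II 3 of the 7 were higher in C57Bl/6N than in C57Bl/6J and 0 were lower, against 5.45% and 3.78% of all rows.

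Of 7 tested smooth muscle and pericyte markers 3 rose in C57Bl/6N and 1 in C57Bl/6J, Acta2 in both. Over all rows 9.45% were called higher in C57Bl/6N and 0.999% in C57Bl/6J. The log2 summed signal of these markers was 12.61 to 13.01 against 12.37 to 12.50 in C57Bl/6N and 12.95 to 13.37 against 12.57 to 12.66 in C57Bl/6J. Their medians were 0.01 to 0.26 on treated C57Bl/6N arrays against -0.16 to -0.04 in sham, and overlapped in C57Bl/6J. Cnn1 was never above background. Of 7 tested endothelial markers 1, Emcn, fell in C57Bl/6N, where 7.92% of all rows were called lower, and Kdr was never above background. The endothelial log2 summed signals were 13.37 to 13.59 against 13.58 to 13.63 in C57Bl/6N and 13.42 to 13.54 against 13.52 to 13.64 in C57Bl/6J. Endothelial medians were -0.27 to -0.11 on treated C57Bl/6J arrays against -0.01 to 0.03 in sham, and -0.26 to -0.03 on treated C57Bl/6N arrays against -0.10 to 0.04 in sham. The 7 cardiomyocyte markers on the array were all well detected, with 0 called in either response and log2 summed signals between 17.05 and 17.33 over the 14 arrays. Their medians were -0.29, -0.14, -0.20 and -0.09 on treated C57Bl/6N arrays, all below the 0.12, 0.05 and 0.01 of C57Bl/6N sham arrays, and between -0.01 and 0.18 on treated C57Bl/6J arrays. Tnni3, 1 of the 7, was lower in C57Bl/6N than in C57Bl/6J under angiotensin II, where 3.78% of all rows were called lower. Of 6 tested atrial markers Nppa rose in both substrains and Stard10 fell in C57Bl/6N, and Bmp10 was never above background. Over all rows 9.45% were called higher and 7.92% lower in C57Bl/6N, and 0.999% higher in C57Bl/6J. The atrial summed log2 signals were 15.26 to 15.43 against 14.12 to 14.65 in C57Bl/6J and 15.53 to 15.61 against 13.47 to 15.03 in C57Bl/6N. The atrial medians were -0.53, -0.30, -0.40 and -0.06 on treated C57Bl/6N arrays, within the spread of its sham arrays (-0.94, 0.60 and 0.10), and at least 0.72 on treated C57Bl/6J arrays, above its sham arrays (0.48, -0.02 and -0.07). Myl4 and Stard10, 2 of the 6, were lower in C57Bl/6N than in C57Bl/6J under angiotensin II, where 3.78% of all rows were called lower. Of 5 tested valve and epicardium markers 0 passed, and Cilp2, Msln and Krt19 were never above background, with summed log2 signals of 8.72 to 9.38 over the 14 arrays. The part of these cell types in the collagen changes was not tested.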

How the data were processed

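Gene rows were measured on 14 arrays, 3 or 4 per group, in left ventricles. Per the labels' protocols, RNA was column-purified and labelled as biotin-cRNA. The authors deposited a linear signal intensity and a detection p-value for each of 18138 rows per array, with array medians of 80.8 to 112, neither background-corrected nor normalised judging by the values. Their second deposited intensity table equals a quantile normalisation of the first (median gap 4.97e-09 percent) with a median of 91.6 in every column, and served as an alternative. It is linear, uncentred and not a ratio. The array model and scanner software were not given in the sources used here.

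With limma 3.58.1 in R 4.3.3, intensities were corrected by normexp, with background means of 60.8 to 74.2 inferred from the detection p-values of the 14215 rows that lie on a grid of 798 steps, then given an offset of 16, quantile normalised and turned to log2. The offset makes a fold change understate that of dim genes. Rows with a detection p under 0.05 on at least 3 arrays (9408) entered 1 fit of 4 group means (lmFit, contrasts.fit, eBayes). Adjusted p-values are Benjamini-Hochberg over these rows and come from this limma fit. Errors of changes are standard errors. Of the rows, 14309 matched a current RefSeq symbol (GRCm38.p6), 2661 an older one and 1168 none. Of the tested collagen rows, Col2a1, Col3a1, Col4a4, Col4a6, Col6a1, Col9a1, Col18a1 and Col25a1 appear to combine several probes, for which the detection p did not track the signal. Levels are not compared between genes. The fit was tested on simulated data.

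Collagen rows above background on at least 3 arrays are named with values. Of these rows, per-array values are given for those called in any comparison and for chains of types I, III to VI, XII, XIV, XV and XVIII. At most 8 biosynthesis genes are named, by their change in C57Bl/6N. The members and lists were chosen with earlier results of these data known. Alternatives covered background, offset, scaling, filters, variance estimation, array weights and leaving out arrays. No batch was given, and the number of arrays limits precision.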

Additional observations from a re-analysis of the deposited data

Results flagged for a closer look

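The 4 arrays of each treated group were examined for the 20 collagen rows above background on at least 3 arrays, which made 40 sets. The sets share the same arrays and the chains vary together, so their count cannot be set against chance. In 7 sets 1 array was far from the other 3. Of these, 3 concerned C57Bl/6J angiotensin II 1, which was low for Col4a1 (11.94, others 12.66 to 12.76), Col6a2 (8.29, others 9.50 to 9.66) and Col15a1 (8.58, others 10.59 to 10.80). C57Bl/6J angiotensin II 4 was low for the fibrillar chains Col3a1 (7.35, others 7.90 to 7.94) and Col5a1 (10.26, others 10.49 to 10.52). In C57Bl/6N, angiotensin II 3 was high for Col4a1 (13.27, others 13.02 to 13.04) and angiotensin II 2 was high for Col14a1 (7.13, others 6.86 to 6.88).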

How the results depend on the processing

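Of 26 alternatives, the direction of no tested collagen call turned. Counts of collagen rows called that moved were as follows. In C57Bl/6J (2 reported) median scaling and background inferred from all rows (neqc) gave 0, no filter on dim rows gave 1, array weights gave 6, and leaving out C57Bl/6J angiotensin II 1 and C57Bl/6N sham 1 together, chosen after seeing the data, gave 1. Leaving out single arrays gave 0 to 4. In C57Bl/6N (11) single omissions gave 8 to 14, and 8 calls (Col1a2, Col3a1, Col4a5, Col5a1, Col12a1, Col14a1, Col16a1 and Col18a1) passed in all 26. The difference of responses (0) gave 2 with array weights and 0 to 1 without single arrays. The sham comparison stayed at 0. Under angiotensin II (7) neqc gave 4, array weights 12, only the arrays of the groups compared 2, and single omissions 1 to 9. Averaged over substrains (10), single omissions gave 8 to 14. Over all rows single omissions gave 1 to 179 calls in C57Bl/6J, 962 to 2270 in C57Bl/6N and 1 to 413 for the difference. They gave 202 to 1477 under angiotensin II and 971 to 1890 averaged over the substrains. Over all rows, array weights raised the calls from 129 to 559 in C57Bl/6J, from 1634 to 2665 in C57Bl/6N, from 1 to 569 for the difference, from 2 to 30 in sham and from 869 to 2240 under angiotensin II. In C57Bl/6J, neqc gave 67 and median scaling 92, with 56.7% and 47.8% higher in place of 72.9%. Under angiotensin II, median scaling made 78.1% of calls higher in place of 59.0%. The neqc setting shrank dim rows, such as Col12a1 in C57Bl/6N, from 0.94 to 0.10. The cause of these shifts was not tested. No paired analysis was possible because the labels give no replicate numbers. The p-values for rows near background rest on few arrays above it.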
